A study of Mus musculus with 9 samples.

Results

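Lymphatic endothelial cells (LECs) of the meninges were compared with LECs of the diaphragm across all expressed genes. The 6 libraries of these tissues, 3 from meninges and 3 from diaphragm, were selected by their labels out of 9 libraries in the series. The other 3, from skin, entered the statistical fit, where they help to estimate the spread between libraries, and their values are given for a few genes. All groups came from untreated wild type mice of the C57BL/6J strain, adult males aged 10 weeks, and differed in the tissue of origin alone. The meninges are the membranes around the brain, and the diaphragm is the muscle sheet below the lungs, covered by mesothelium on both faces. Cells were sorted as CD45-CD31+PDPN+, that is without the leukocyte antigen CD45 and with the endothelial antigen CD31 and the glycoprotein podoplanin. The labels do not say how many animals went into a library or whether libraries of a tissue are separate animals, so the p-values measure the spread between these libraries, which may be technical. The question was how far lymphatic endothelium around the brain differs from that of a peripheral tissue.

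LECs line the vessels that drain fluid and immune cells from tissues. Endothelial and stromal cells keep a record of their place in the body in the transcription factors they express: HOX genes mark levels of the trunk and limbs and are silent in much of the head, where factors of the ZIC, ALX, MSX and FOX families act in mesenchyme. NOTCH receptors are cut after binding their ligands, and the freed fragment acts with the DNA-binding protein RBPJ to switch on HES and HEY repressors. Immediate early genes such as Fos, Jun and Egr1 are switched on within minutes by growth signals and by stress, including the handling of tissue during cell isolation.

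Total counts ranged from 26075366 to 34592850 per library over the series. Between 14396 and 15353 genes had a count in the diaphragm libraries and between 16412 and 17245 in the meningeal ones. The summed level of 30 LEC identity genes, in CPM (counts scaled to a common effective library size), was 23343, 10711 and 17953 in Meninges replicates 1, 2 and 3 and 20907, 25625 and 28223 in those of diaphragm, values being given in this order throughout, and all 30 were detected in each of these libraries. CPM values are not divided by gene length, so levels are compared between libraries and not between genes. Ptprc, which encodes CD45, was at 2.69, 3.53 and 0.0793 CPM in meninges and 0.0369, 118 and 6.23 in diaphragm, so that Diaphragm replicate 2 stood apart for this gene. The leukocyte list with Ptprc summed to 46, 98.7 and 99.97 CPM in meninges and 94.3, 135 and 97.3 in diaphragm. Its next most abundant members, Lyz2 (7.33, 0.227 and 22.3 CPM in diaphragm) and Kit (2.25, 7.01 and 15.1), were highest in Diaphragm replicate 3. Markers of connective tissue and bone were unevenly spread over the meningeal libraries. The summed fibroblast level was 4153, 15407 and 15808 CPM in meninges and 3188, 2906 and 1991 in diaphragm, and the bone and cartilage level 244, 2463 and 1273 against 112, 38.7 and 54.8. In these bulk samples, fewer cells of a type and less RNA per cell cannot be told apart.

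Of 14831 genes tested with edgeR's quasi-likelihood test, 25 were higher and 26 lower in meninges at a Benjamini-Hochberg adjusted p under 0.05, which is 0.344% of the genes (0.169% higher and 0.175% lower). At an unadjusted p under 0.05, 6.01% were higher and 4.05% lower. The median log2 fold change over all genes tested was 0.05, and the libraries of the tissues did not overlap for 17.1% of them. The biological coefficient of variation was 1.24, so a gene needed a large difference to pass: the smallest fold of group means among the called genes was 3.70 for the higher and 3.84 for the lower ones. Of the 51 calls, 15 held whichever of the 9 libraries was omitted.

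Of the 26 genes called lower in meninges, 16 were lowest in Meninges replicate 2, the library with the lowest LEC identity sum, and the part of that sum in these calls was not tested. Cav1, which encodes the caveolar coat protein caveolin-1, stood at 203, 90.9 and 166 CPM in the meningeal libraries and at 1055, 802 and 909 in Diaphragm replicates 1 to 3 (log2 change -2.59 with an SE of 0.35, edgeR adjusted p = 0.00537). The highest meningeal library was well below the lowest diaphragm library. Vim, the intermediate filament protein vimentin, was at 379.9, 215 and 269 CPM against 1348, 1291 and 1453 (log2 change -2.24 with an SE of 0.28, edgeR adjusted p = 0.00367). Its diaphragm values lay close together, and the groups were far apart. Both calls held without any 1 library, as did those of Pkhd1l1 (112, 26.2 and 62.6 against 1381, 1182 and 1088 CPM), a fibrocystin-like membrane protein, and Wipf3 (48.3, 27.5 and 57 against 432, 466 and 518 CPM), which binds actin regulators of the WASP family. Tnxb, a tenascin of the extracellular matrix, was at 42.3, 34.5 and 17.3 against 472, 375 and 545 CPM (log2 change -3.89 with an SE of 0.44, edgeR adjusted p = 0.00154), and its call held in all 9 fits too. Skin libraries had 485, 511 and 378 CPM of Cav1 and 1259.8, 1686 and 1598 CPM of Vim.

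A further 6 genes were called lower with less stable calls. Tgfbi, a matrix protein induced by TGF-beta, was at 43.5, 31.6 and 49.3 CPM in meninges and 169, 328 and 231 in diaphragm (log2 change -2.55 with an SE of 0.39, edgeR adjusted p = 0.013). Cd55, which protects cells from complement, was at 63.5, 24.4 and 33.4 against 214, 261 and 341 CPM (log2 change -2.75 with an SE of 0.46, edgeR adjusted p = 0.0216). Ucp2, a carrier of the inner mitochondrial membrane, was at 58.7, 18.1 and 35.4 against 378, 197 and 198 CPM, and Diaphragm replicate 1 was the highest (log2 change -2.78 with an SE of 0.50, edgeR adjusted p = 0.0289). Ank3, the membrane scaffold ankyrin-G, was at 11.2, 22.6 and 21.6 against 191, 135 and 134 CPM (log2 change -3.06 with an SE of 0.52, edgeR adjusted p = 0.0223). The transcription factor gene Glis3 was at 8.55, 8.16 and 17.6 against 83.6, 64 and 130.0 CPM, and Fam102b at 39.6, 66.9 and 62 against 152, 346 and 449 CPM (edgeR adjusted p = 0.0296 and 0.0307). None of these groups overlapped. These 6 calls depended on single libraries: Tgfbi was called in 7 of the 9 leave-one-out fits, Cd55 in 5, Ucp2, Glis3 and Fam102b in 4 and Ank3 in 3, and their highest adjusted p in those fits lay between 0.0653 (Tgfbi) and 0.158 (Ucp2).

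The remaining lower genes outside the lists described later covered a wide range of levels. The predicted gene Gm45074 was at 0.282, 0 and 0.106 CPM in meninges and 66.3, 81.5 and 54.8 in diaphragm (log2 change -8.99 with an SE of 1.39, edgeR adjusted p = 0.013). Drp2, a relative of dystrophin, was at 2.0, 7.81 and 4.2 against 163, 140.1 and 148 CPM (log2 change -5.01 with an SE of 0.90, edgeR adjusted p = 0.0282). The diaphragm values of Drp2 lay close together, while its call was lost in 6 of the 9 leave-one-out fits, with an adjusted p of up to 0.158. Clca3a1, of the family of chloride channel accessory proteins, was at 35.6, 3.59 and 10.7 against 299, 579 and 529.6 CPM, and Ackr3, a scavenger of the chemokine CXCL12, at 11.6, 1.06 and 8.99 against 133, 149.6 and 187 CPM. Without Meninges replicate 3 the adjusted p was 0.0575 for Clca3a1 and 0.0741 for Ackr3. Both chains of soluble guanylate cyclase, the sensor of nitric oxide, were called lower, Gucy1b3 at 11.8, 5.37 and 10.4 against 83.8, 203 and 182 CPM and Gucy1a3 at 13.6, 10.8 and 38.8 against 159.7, 112 and 227 CPM, and the groups overlapped for neither. Gucy1b3 was called in all 9 leave-one-out fits and Gucy1a3 in 3, with an adjusted p of up to 0.185. Among guidance genes of vessels, Efnb2 (ephrin-B2) was at 43.9, 60.4 and 36.3 against 284, 400.5 and 239.9 CPM and Sema3a at 92, 66.4 and 99.6 against 307, 377 and 306 CPM. Efnb2 was called in 8 of the 9 fits and Sema3a in 3, with highest adjusted p of 0.0664 and 0.12. Fgl2, a fibrinogen-like protein abundant in LECs, was at 514, 253 and 413 against 1209, 1928 and 2196 CPM and was called in all 9. It was the 1 called member of the 30 LEC identity genes (0.175% of all genes were called lower). Of these 30, 23 had a log2 change below 0 and 7 above (51.6% of all genes were above). At an unadjusted p under 0.05 in the edgeR test, 8 were lower (4.05% of all genes) and 2 higher (6.01%). In meninges 9 were fully below (6.7% of all genes) and 3 fully above (10.4%).

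Among genes higher in meninges, 11 of 25 had a mean of Meninges replicates 2 and 3, the libraries with most fibroblast transcripts, under 2 times replicate 1. Thbs1, which encodes the matrix glycoprotein thrombospondin-1, reached 885, 1130.1 and 1593 CPM against 189, 144 and 91.1 in diaphragm (log2 change 3.09 with an SE of 0.46, edgeR adjusted p = 0.0097). Its call held in all 9 leave-one-out fits. Ttr, the thyroid hormone carrier transthyretin, was even over the meningeal libraries, at 510.0, 529 and 429 CPM, with 3 counts in diaphragm (log2 ratio of pooled counts 13.69, 95% exact counting interval 12.14 to 15.97, edgeR adjusted p = 2.82e-05). Emb, the membrane glycoprotein embigin, was at 99.8, 116 and 80.6 CPM and had 1 diaphragm count (log2 ratio of pooled counts 12.96, 95% exact counting interval 10.48 to 18.26, edgeR adjusted p = 0.00511). Skin had 2.09, 73.1 and 27.2 CPM of Emb and no count of Ttr. The bicarbonate transporter gene Slc4a10, which is on the meningeal fibroblast list, was at 223, 73.7 and 131 CPM, highest in Meninges replicate 1, with no diaphragm count, so that it was at least 3870.2-fold higher when 3 counts, the floor used throughout, are allowed for the diaphragm group. That list summed to 606, 1493 and 1232 CPM in meninges and 352, 181 and 189.6 in diaphragm, and its part in the call was not tested. Plvap, which forms the diaphragms of endothelial fenestrae, was likewise highest in Meninges replicate 1, at 314, 117 and 212 CPM against 28, 13.7 and 22.9 (log2 change 3.32 with an SE of 0.63, edgeR adjusted p = 0.0449). The Plvap call was lost without any 1 of the 6 meningeal and diaphragm libraries, with an adjusted p of up to 0.195.

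The same ratio was under 2 in 6 further genes, 4 of them with counts in every diaphragm library. Ctsd, the lysosomal protease cathepsin D, was at 847, 642 and 940.2 CPM against 246, 205 and 145 (log2 change 2.03 with an SE of 0.37, edgeR adjusted p = 0.0307). Itih5, a protein that binds hyaluronan, was at 947, 572 and 934 against 271, 229 and 158 CPM (log2 change 1.90 with an SE of 0.36, edgeR adjusted p = 0.0451). Slc38a2, a transporter of neutral amino acids, was at 881, 1247 and 1437 against 282, 432 and 249.6 CPM (log2 change 1.89 with an SE of 0.34, edgeR adjusted p = 0.0296). Ctgf, a matricellular protein, was at 172, 213 and 279.9 against 15.2, 42.5 and 28.5 CPM (log2 change 2.95 with an SE of 0.49, edgeR adjusted p = 0.0216). The exporter gene Slc47a1, also on the meningeal fibroblast list, was at 46.7, 55.8 and 83.6 CPM with no diaphragm count, at least 1685-fold higher. Snhg11, a long noncoding RNA that hosts small nucleolar RNAs, was at 31.8, 66.3 and 45.2 CPM with 1 diaphragm count (log2 ratio of pooled counts 11.92, 95% exact counting interval 9.44 to 17.23, edgeR adjusted p = 0.0217). The tissues were fully separated for these 6 genes. Their calls held in between 3 (Ctsd) and 6 (Slc47a1) of the 9 leave-one-out fits, with highest adjusted p from 0.115 (Ctgf) to 0.196 (Itih5).

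In the remaining 14 genes the mean of Meninges replicates 2 and 3 was at least 2 times replicate 1, and in 10 of them at least 4 times, up to 37.7 times for Mmp13. The fibroblast, bone and meningeal fibroblast sums rise in the same libraries, and their part in these calls was not tested. Runx2, the transcription factor of bone-forming cells, was at 79.1, 563 and 339 CPM against 0.590, 0.151 and 0.215 (log2 change 9.98 with an SE of 1.41, edgeR adjusted p = 0.00798), and Mmp13, a collagenase, at 17, 947 and 335 against 0.0369, 0 and 0.0358 CPM. Both were called in all 9 leave-one-out fits. Serpinf1, which encodes the secreted factor PEDF, was at 153, 1036 and 822 against 17.5, 35.3 and 14.6 CPM (log2 change 4.90 with an SE of 0.85, edgeR adjusted p = 0.0244). Creb3l1, a transcription factor anchored in the endoplasmic reticulum, was at 6.95, 106 and 129.7 CPM with 2 diaphragm counts (log2 ratio of pooled counts 11.73, 95% exact counting interval 9.88 to 14.78). Col8a2, a short-chain collagen, was at 12.9, 128 and 134 CPM with 1 diaphragm count, and the endothelin receptor gene Ednra at 18, 148 and 171 CPM with 2. The growth factor receptor gene Fgfr2 was at 28.3, 403 and 330.1 CPM with 1 diaphragm count, and Ndnf at 19.6, 109 and 55 CPM with none. Cadm1, a cell adhesion molecule, was at 6.51, 75.1 and 88.1 CPM against 0, 0.0757 and 0.143. Apart from Runx2 and Mmp13, these genes and Map1b were each called in 4 of the 9 leave-one-out fits, with an adjusted p of up to 0.271 for Ndnf. In each of these genes Meninges replicate 1 was the lowest meningeal library and still above every diaphragm library.

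Map1b, a microtubule-associated protein, was at 582, 2728 and 2110.5 against 152, 266 and 226 CPM. The ratio was between 2 and 4 in the other 4 genes. Sfrp4, a secreted WNT antagonist, was at 53.4, 132 and 113 CPM with no diaphragm count, at least 2699-fold higher, and was called in all 9 leave-one-out fits. Shisa3, an attenuator of WNT and FGF signalling, was at 213, 551 and 662 CPM against 0.111, 0 and 1.33 (log2 change 9.94 with an SE of 1.69, edgeR adjusted p = 0.0223). Alpl, tissue-nonspecific alkaline phosphatase, was at 103, 265 and 241 against 1.58, 2.61 and 3.4 CPM, and Sulf2, an extracellular sulfatase that trims heparan sulfate, at 301, 626 and 619.8 against 60.3, 87.3 and 124 CPM. Alpl was called in 4 of the 9 leave-one-out fits and Shisa3 and Sulf2 in 5, with an adjusted p of up to 0.114 for Sulf2. With Meninges replicate 1 as the single meningeal library, 3 genes were called higher and 8 lower, and all 3 of the higher ones and 6 of the lower ones were among the 51 calls. That fit assumes that the lone library varies like the other groups.

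**Figure D1:**
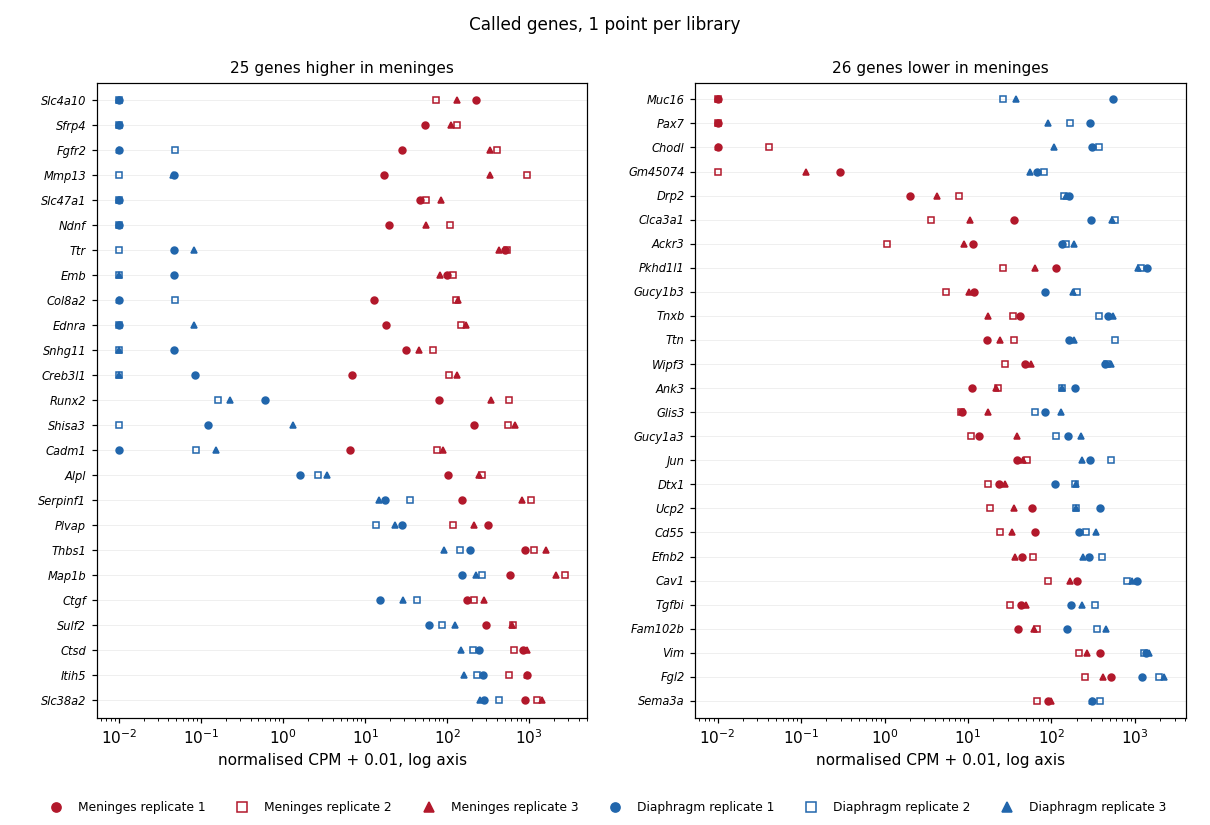
Normalised CPM of the 51 called genes on a log axis, with 0.01 added so that 0 can be shown. Each point is 1 library, meninges in red and diaphragm in blue. The groups are apart for every gene, 12 of the 25 higher genes had 3 counts or fewer over the diaphragm libraries, and Meninges replicate 1 (filled red circles) lies well to the left of the other meningeal libraries for genes such as Mmp13 and Fgfr2 but not for Ttr or Emb.

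Positional transcription factors separated the tissues in opposite ways, with more HOX genes detected in diaphragm and head mesenchyme factors in meninges. Of 39 HOX cluster genes looked for, 20 were in the table. At least 1 count was seen for 15, 16 and 16 of them in Diaphragm replicates 1 to 3 and for 10, 7 and 10 in Meninges replicates 1 to 3. With a minimum of 10 counts, the numbers were 14, 14 and 16 against 6, 6 and 4. The summed HOX level was 200.1, 241 and 233 CPM in diaphragm and 173, 35.8 and 61.6 in meninges, so that all diaphragm libraries were above all meningeal ones, with Meninges replicate 1 the nearest. In Skin replicates 1 to 3 at least 1 count was seen for 10, 11 and 7 of the HOX cluster genes. A minimum of 10 counts was reached by 9, 6 and 7, so the numbers in skin were also below those in diaphragm. The skin sums were 291, 342 and 198 CPM. No test was made on these sums. With its cofactors the HOX list summed to 488, 582 and 533 CPM in meninges and 531, 463 and 466 in diaphragm, and these ranges overlapped.

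Several HOX genes were seen almost only in diaphragm. Hoxb7 was at 1.14, 21.9 and 7.52 CPM in the diaphragm libraries and without a count in meninges, and Hoxc4 at 6.49, 6.89 and 2.79 CPM, also without a meningeal count. Against the floor of 3 counts these were at least 346-fold and 183-fold lower. Hoxb6 (28.9, 4.09 and 4.69 CPM) had 2 meningeal counts, Hoxa5 (16.3, 1.59 and 0.895 CPM) 1 and Hoxd10 (0.590, 25.9 and 1.86 CPM) 2, and Hoxb4 was at 0.369, 27 and 16.6 against 0.219, 0 and 0.0793 CPM. The diaphragm levels themselves varied widely, with Hoxb6 highest in replicate 1 and Hoxd10 in replicate 2. Meninges was not devoid of HOX transcripts: Hoxd8 was at 75.1, 9.87 and 41.2 CPM against 29, 74.1 and 92.6, Hoxd9 at 38.8, 0.531 and 14.9 against 84.7, 32.1 and 60.9, and Hoxd4 at 39.8, 1.62 and 1.53 against 6.82, 4.54 and 3.4. These 3 were highest in Meninges replicate 1 among the meningeal libraries, and their groups overlapped.

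With their cofactors, such as MEIS proteins, which bind DNA beside HOX proteins, the list held 43 genes, of which 24 were in the table and 20 were tested. None passed the edgeR test, 6 were lower at an unadjusted p under 0.05 (4.05% of all genes), and the smallest adjusted p was 0.267 for Hoxd10. All meningeal libraries were below all diaphragm ones for 7 of the 20, against 6.7% of all genes tested. The cofactors Meis1 and Meis2 did not follow one direction: Meis1 was at 0.0313, 2.81 and 1.67 CPM in meninges and 8.33, 18.7 and 26.4 in diaphragm, whereas Meis2 was at 168, 203 and 96.5 against 106, 67 and 87.8. The median log2 fold change of the 20 was -1.35, against 0.05 over all genes, and it lay between -3.52 and -1.35 when 1 library was left out.

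Head and meningeal mesenchyme factors showed the reverse. Zic1, a zinc finger factor of the developing meninges, was at 24.1, 84.8 and 101 CPM in meninges with no diaphragm count, at least 1902-fold higher (edgeR adjusted p = 0.1). Its neighbour Zic4 was at 6.7, 56.3 and 46.9 CPM with no diaphragm count (0.0921 for its edgeR adjusted p). Alx4, a homeodomain factor of the skull and face, was at 4.6, 141 and 37.9 CPM and also without a diaphragm count (edgeR adjusted p = 0.058). Foxd1 (4.32, 79.9 and 30.3 CPM), Msx2 (5.38, 43.1 and 16.7), Lmx1b (5.57, 20.8 and 6.98) and Zic5 (4.63, 17.8 and 8.56) were likewise without a count in diaphragm. In every one of these genes Meninges replicate 1 was the lowest meningeal library. Prrx1, a homeodomain factor of skeletal mesenchyme, was at 92.9, 418 and 235 CPM against 22.7, 36.3 and 3.69 (log2 change 3.57 with an SE of 0.83, edgeR adjusted p = 0.105).

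Of the 38 factors on this list, 33 were in the table and 23 tested. Runx2 was the 1 called member (0.169% of all genes were called higher), and 14 were higher at an unadjusted p under 0.05 (6.01% of all genes). All meningeal libraries were above all diaphragm ones for 13 of the 23, against 10.4% of all genes tested. The median log2 fold change was 8.44, and 6.27 with the genes that had no count in 1 tissue set at their bound. Of the 23, 10 had no diaphragm count and 1 no meningeal count, and these entered the test through the other tissues. The low-count filter therefore fixes in part the median and the number fully above. Over a subset of 14 ZIC, ALX, MSX, TWIST, FOXD1 and LMX1B genes, chosen after their values were seen, the summed level was 58.6, 485 and 291 CPM in meninges and 1.03, 0 and 32.5 in diaphragm. The value in Diaphragm replicate 3 came from Alx1 alone (0, 0 and 32.5 CPM in the diaphragm libraries). En1, a homeodomain factor, ran the other way, at 4.42, 0.417 and 8.6 CPM in diaphragm and without a meningeal count. Foxp2 (39.3, 141 and 150.0 against 55.5, 63.8 and 242 CPM), a forkhead factor, overlapped between the tissues. Among the meningeal libraries these sums were lowest in replicate 1, as were the fibroblast sums, whose part was not tested. 5 genes (Zic1, Zic4, Foxc1, Foxd1 and Alx4) are on the meningeal fibroblast list as well.

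Trunk and limb factors formed no single pattern. Of 33 listed, 26 were in the table and 16 tested, none was called, and the median log2 fold change was 0.25, with a sign that changed between settings (from -0.52 to 1.33 over the fits that left out 1 library). Gata4, a zinc finger factor of heart, mesothelium and other inner organs, was at 46.8, 29 and 4.66 CPM in the diaphragm libraries and without a count in meninges, at least 909.6-fold lower (edgeR adjusted p = 0.136). Tbx15 was at 13.5, 76.5 and 64.5 CPM in meninges against 7.67, 0 and 0, and Pax1 at 0.0313, 89.2 and 25.2 with no diaphragm count. Meox1, a factor of somites, overlapped between the tissues, at 105, 16.4 and 66.9 against 53.7, 24.4 and 153 CPM, as did Osr1 (12.2, 22.5 and 34.6 against 23.3, 60.5 and 14.1). Meox2 was at 2.91, 0.375 and 0.396 against 1.55, 39.4 and 12.1 CPM (unadjusted p = 0.0255 in the edgeR test).

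**Figure D2:**
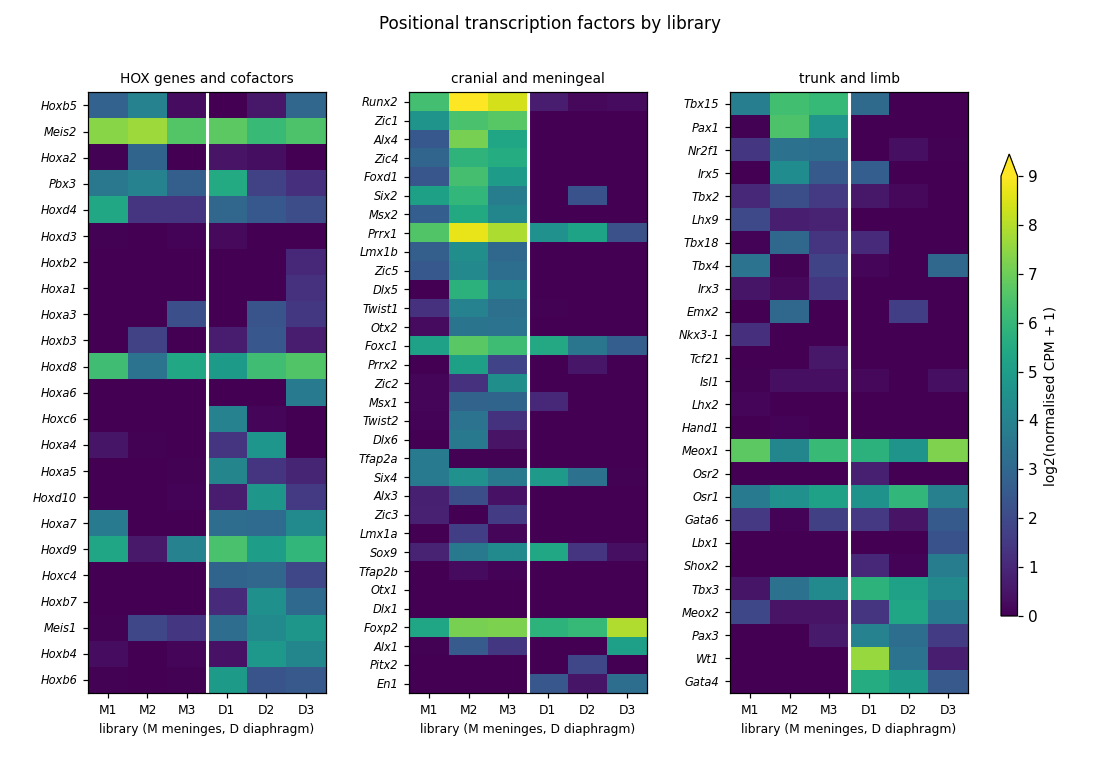
Heat maps of log2(normalised CPM + 1) for the members shown of the HOX list with its cofactors (23), the cranial and meningeal list (32) and the trunk and limb list (26), with 1 column per library. Rows are ordered by the difference between tissues. Many HOX rows are lit in the diaphragm columns only, most cranial rows in the 3 meningeal columns, brightest in Meninges replicates 2 and 3, and Hoxd8, Meis2, Foxp2 and Meox1 are lit in all 6.

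In the NOTCH pathway 1 regulator was called lower in meninges, and no receptor, ligand or target was called. Dtx1, an E3 ubiquitin ligase that acts on NOTCH, was at 23.4, 17.3 and 27.4 CPM in meninges and 110.2, 189 and 195 in diaphragm (log2 change -2.86 with an SE of 0.43, edgeR adjusted p = 0.0097). It was the single called member of 38 tested (0.175% of all genes were called lower). Its call was lost without Meninges replicate 2 (edgeR adjusted p = 0.0592). Dtx4, of the same family, was at 0.250, 6.0 and 10.9 against 163, 93 and 9.85 CPM, with Diaphragm replicate 3 within the meningeal range. The target gene Hey1, a repressor, was at 29.8, 10.1 and 24.1 against 78.1, 138 and 64.8 CPM without overlap (log2 change -2.13 with an SE of 0.69, edgeR adjusted p = 0.318), and Hes1, also a target, at 22.9, 12.3 and 30.6 against 43.3, 22.6 and 18 with overlap. Heyl was at 21.9, 3.81 and 101 against 217, 144 and 39.5 CPM, and it is also a gene of muscle stem cells. Rbpj, the DNA-binding partner of NOTCH, was at 25.6, 25.7 and 40.1 against 40.9, 159 and 54.4 CPM (log2 change -1.48 with an SE of 0.70, edgeR adjusted p = 0.514).

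No receptor lay fully below diaphragm. Notch1, a receptor with a role in lymphatic valves, was at 215, 114 and 234 CPM in meninges and 297, 187 and 192 in diaphragm, and Notch4 at 31.3, 3.97 and 17.6 against 19.5, 5.57 and 18.1. Notch2 was higher in every meningeal library, at 504, 453 and 549 against 441, 224 and 189 CPM, but did not pass (log2 change 0.82 with an SE of 0.43, edgeR adjusted p = 0.577). Notch3, a receptor of mural cells, was at 15.7, 43.7 and 63 against 106, 90.5 and 53.9 CPM. Among ligands, Jag1 was at 30.2, 98.8 and 40.0 against 114, 84 and 90.1 CPM and Dll4 at 50.3, 17.5 and 56.4 against 34.1, 39.8 and 67. Maml3, a coactivator of the mastermind family, was at 29.1, 70.5 and 48.4 against 6.67, 5.64 and 18.3 CPM and Numbl, a relative of the inhibitor Numb, at 27.7, 52.5 and 17.8 against 0.405, 14.4 and 3.37, both without overlap. The median of the 38 was -0.28, with 24 below 0 and 14 above (51.6% of all genes were above). At an unadjusted p under 0.05, 3 were lower (4.05% of all genes) and 1 higher (6.01%). In meninges 4 genes were fully below and 4 fully above, 21.1% together against 17.1% of all genes.

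Of the immediate early genes tested, 44 of 49 had a lower fitted level in meninges. Jun, a subunit of the transcription factor AP-1, was at 38.3, 50.9 and 45.8 CPM in meninges and 291, 516 and 229 in diaphragm (log2 change -2.94 with an SE of 0.43, edgeR adjusted p = 0.0097). It was the single called gene of 49 tested (0.175% of all genes were called lower). Without Meninges replicate 3 its edgeR adjusted p was 0.0606. Fos, the partner of Jun, was at 2.75, 16.9 and 8.96 against 53.1, 122 and 58 CPM (log2 change -3.03 with an SE of 0.70, edgeR adjusted p = 0.105), and Fosb at 2.69, 18.5 and 12.1 against 104, 258 and 39.5 (log2 change -3.59 with an SE of 0.79, edgeR adjusted p = 0.0921). The lowest diaphragm library was above the highest meningeal library for these 3 genes and for Junb (1.22, 3.69 and 8.51 against 29, 30.0 and 27.6 CPM). The 7 AP-1 subunit genes summed to 204, 176 and 176 CPM in meninges and 659, 1010.1 and 618 in diaphragm. Skin libraries had 1113, 1501 and 800.3 CPM.

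The sequences upstream of the starts of Jun, Fos and Fosb are shown because these subunits had the lowest log2 changes of the 7 AP-1 genes and the promoters of Jun and Fos hold well known response elements. They are the 250 bases before the start in RefSeq's table for GRCm38.p6, and the capitals mark any match, on either strand, to TGACTCA (the AP-1 site), TGACATCA (a variant of it), TGACGTCA or TGACGTA (cyclic AMP response elements) or the CArG box of serum response factor. Jun lies at chr4:95052223-95052472, minus strand, Fos at chr12:85473640-85473889, plus strand and Fosb at chr7:19310046-19310295, minus strand.
Jun: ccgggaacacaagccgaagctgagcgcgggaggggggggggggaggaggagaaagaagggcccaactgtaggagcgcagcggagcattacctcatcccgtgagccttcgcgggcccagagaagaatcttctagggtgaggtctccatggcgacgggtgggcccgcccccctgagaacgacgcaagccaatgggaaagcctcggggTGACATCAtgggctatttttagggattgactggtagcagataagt
Fos: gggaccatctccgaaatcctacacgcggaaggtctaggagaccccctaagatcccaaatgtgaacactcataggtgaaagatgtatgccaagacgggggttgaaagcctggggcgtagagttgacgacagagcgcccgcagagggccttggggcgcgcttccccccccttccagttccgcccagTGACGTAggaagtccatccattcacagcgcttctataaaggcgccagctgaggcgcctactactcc
Fosb: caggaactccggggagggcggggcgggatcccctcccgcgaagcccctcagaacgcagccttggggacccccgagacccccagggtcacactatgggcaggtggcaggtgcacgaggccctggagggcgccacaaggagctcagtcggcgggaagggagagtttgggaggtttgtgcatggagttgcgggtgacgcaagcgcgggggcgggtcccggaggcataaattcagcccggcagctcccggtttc

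The Jun window held TGACATCA once and the Fos window TGACGTA once, and the Fosb window had no match to these letters. TGACATCA was found in 3.41% of 27025 genes' windows of the same length and in 3 of the 40 list members with an entry (Jun, Klf6 and Maff). TGACGTA was found in 1.27% of all and in 5 of 40 (Fos, Egr4, Atf3, Nr4a3 and Btg1). For TGACGTCA the share was 1.77% of all and 4 of 40, for TGACTCA 5.16% and 1 of 40, and for the CArG box 1.62% and 3 of 40. A match is a description of the letters and no evidence of binding.

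Beyond AP-1, the zinc finger factor Egr1 was at 98.2, 181 and 384 CPM in meninges and 1027, 1068 and 735 in diaphragm (log2 change -2.09 with an SE of 0.53, edgeR adjusted p = 0.163). Zfp36, which speeds the decay of inflammatory mRNAs, was at 57.1, 34.4 and 56.8 against 185, 231 and 192 CPM (log2 change -2.04 with an SE of 0.46, edgeR adjusted p = 0.101). Klf6 was at 273, 313 and 393 against 727, 983 and 707 CPM (log2 change -1.30 with an SE of 0.28, edgeR adjusted p = 0.0769), and Klf4, a factor of endothelial quiescence, at 66.8, 18.2 and 60.3 against 248, 110.2 and 217 CPM (log2 change -1.99 with an SE of 0.57, edgeR adjusted p = 0.243). Groups did not overlap for any of these 4. The heat shock genes Hspa1a (19, 4.37 and 16.6 against 146, 245 and 92 CPM) and Hspa1b (14.4, 3.97 and 0.872 against 55, 106 and 30.0) were also separated, though they are near-identical copies between which reads can be split. Socs3, a feedback inhibitor of cytokine signalling, was at 3.66, 0.281 and 0.687 against 13.7, 41.6 and 12.7 CPM, and Btg2, an inhibitor of proliferation, at 12.6, 34.2 and 33.7 against 142, 137 and 76.3.

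Not every member followed. Fosl1, an AP-1 subunit, was at 0, 14.5 and 0.185 against 0.0737, 0.947 and 0.860 CPM (log2 change 2.96 with an SE of 2.93, edgeR adjusted p = 0.886). Dusp1, a phosphatase that ends kinase signalling, was at 328, 131 and 242 against 524, 299.7 and 336 CPM and overlapped, as did Hspb1 (27.9, 7.84 and 45.2 against 12.6, 35.6 and 38) and Dnajb1 (108, 16.2 and 73.6 against 48.8, 96.6 and 54), chaperones of the heat response. Nr4a2, an orphan nuclear receptor, was higher in each meningeal library, at 4.7, 5.22 and 39 against 0, 0.265 and 0.0716 CPM (log2 change 7.13 with an SE of 2.68, edgeR adjusted p = 0.374). Of the 49 genes, 44 had a log2 fold change below 0 and 5 above, whereas 51.6% of all genes were above. The median of -1.01 lay between -1.19 and -0.75 when 1 library was left out. At an unadjusted p under 0.05, 12 were lower, against 4.05% of all genes, and 1 higher, against 6.01%. All meningeal libraries were below all diaphragm ones for 18 of 49, against 6.7% of all genes. The list summed to 3027, 1935 and 2918 CPM in meninges, 6031, 6569 and 5353 in diaphragm and 6376, 8217 and 5261 in skin.

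**Figure D3:**
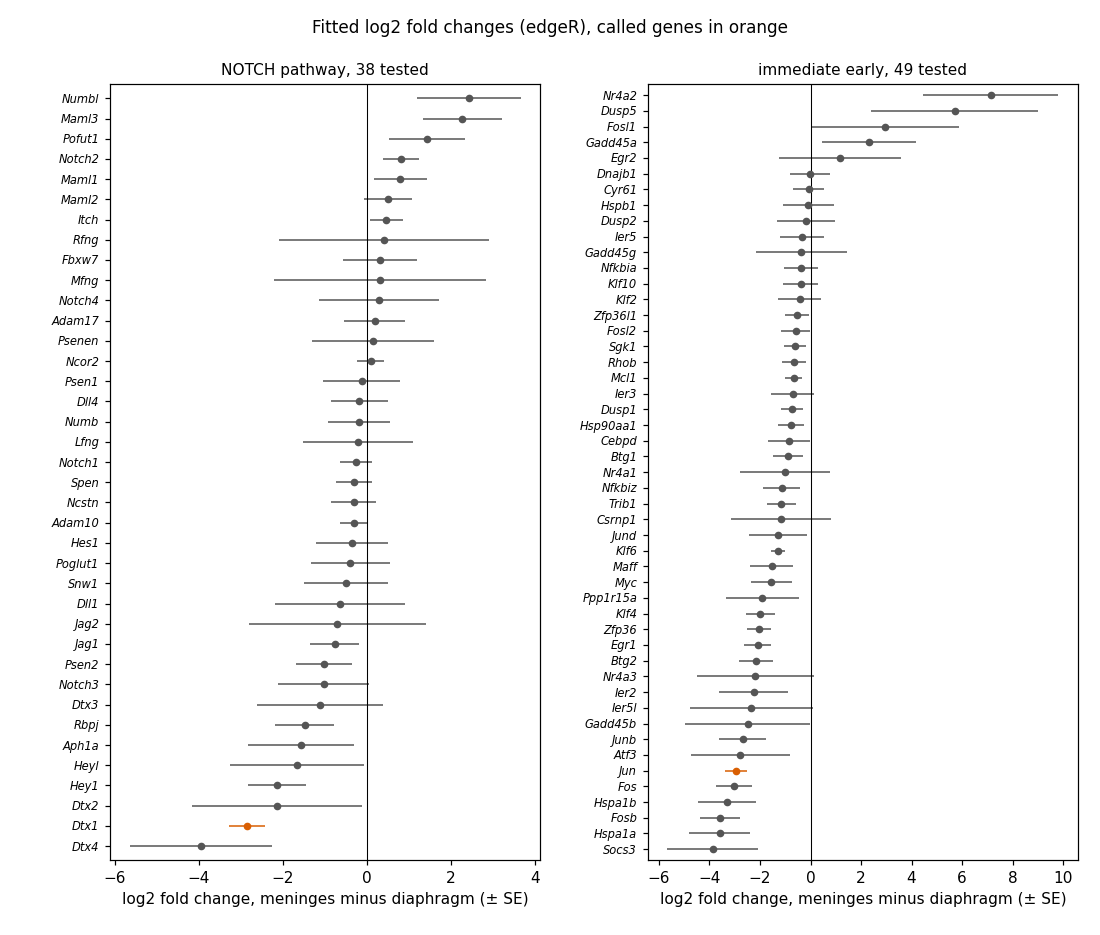
Fitted log2 fold changes, meninges minus diaphragm, with standard errors, for the 38 NOTCH pathway genes and the 49 immediate early genes tested, called genes in orange. NOTCH genes lie on both sides of 0 with Dtx1 (-2.86) apart from 0 by many standard errors, whereas 44 of the 49 immediate early genes lie below 0 and Jun (-2.94) has a short error bar.

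Muscle stem cell transcripts were present in all diaphragm libraries and nearly absent from meninges, while some fibre genes were detected in both tissues. The whole muscle list summed to 266, 1127 and 896 CPM in meninges and 1986, 2341 and 1273 in diaphragm, with no overlap. Pax7, which marks muscle stem cells, was at 288, 165 and 91.9 CPM in diaphragm with no meningeal count, at least 6158-fold lower (edgeR adjusted p = 0.0223). Chodl, a membrane lectin of quiescent muscle stem cells, was at 306, 370.1 and 108 CPM with 1 meningeal count (edgeR adjusted p = 0.000399). Ttn, the giant sarcomere protein titin, was also called, at 161, 572 and 187 CPM in diaphragm against 17.1, 35.2 and 23.8 in meninges (log2 change -3.60 with an SE of 0.70, edgeR adjusted p = 0.0478). Chodl was called in all 9 leave-one-out fits, Pax7 in 6 and Ttn in 4, with highest adjusted p of 0.07 for Pax7 and 0.19 for Ttn.

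The myogenic factors Myf5 (27.1, 34.8 and 18.7 CPM in diaphragm) and Myod1 (13.1, 1.7 and 3.12), the cadherin gene Cdh15 (32.4, 40.4 and 2.65), the calcitonin receptor gene Calcr (6.04, 37 and 8.77) and Musk (11.4, 6.67 and 5.37), a kinase of the nerve-muscle junction, had no count in meninges. Myf5 was at least 913-fold and Cdh15 at least 853-fold lower against the floor of 3 counts. Over 9 stem cell genes, a subset chosen after the values were seen, the sum was 702, 668 and 242 CPM in diaphragm and 0, 0.0312 and 0.555 in meninges. All 9 were detected in each diaphragm library and 0, 1 and 1 of them in Meninges replicates 1 to 3. In skin the sum was 5.3, 1.99 and 1.01 CPM. The growth factor receptor gene Fgfr4, which muscle stem cells also express and which is named here after its values were seen, was at 55.2, 51.8 and 31.3 CPM with 1 meningeal count (edgeR adjusted p = 0.0515).

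Contractile genes of muscle fibres were detected as well. Over 25 sarcomere and contraction genes, also grouped after the values were seen, the sum was 485, 1173 and 508 CPM in diaphragm, 24.5, 71.2 and 58.1 in meninges and 190.5, 271 and 288 in skin. Ttn and Myh4 were highest in Diaphragm replicate 2, and some others in replicate 1 or 3, such as Mylpf and Neb. Mb, which encodes myoglobin, was at 0, 13.7 and 3.3 CPM in meninges against 0.884, 41.8 and 44.4, and Actn3, an actin crosslinker of fast fibres, at 0, 11.5 and 8.54 against 1.25, 39.8 and 0.0716, both with overlap. Acta1, skeletal actin, was at 34.4, 78.8 and 19.7 CPM in diaphragm and 0, 0.312 and 0.502 in meninges, and Neb, the thin filament protein nebulin, at 67.4, 99.8 and 136 against 4.98, 7.31 and 10.2 (log2 change -3.75 with an SE of 0.78, edgeR adjusted p = 0.072). Myh4, a fast myosin heavy chain that shares sequence with its family, was at 2.62, 144 and 4.41 CPM and had no count in meninges. Mylpf and Tnnt3, of the fast fibre thick and thin filaments, were at 40.5, 11.2 and 19.5 and 10.4, 67.4 and 62.2 CPM in diaphragm. Ckm, muscle creatine kinase, was at 0.774, 1.86 and 4.44 CPM. Slow fibre genes on the list were not all absent. Tnni1 and Tnnc1 had no count in any of the 6 libraries. Tnnt1, the slow troponin T, was at 8.44, 11.97 and 3.76 CPM in diaphragm and 0.783, 0 and 2.22 in meninges, without overlap (edgeR adjusted p = 0.869).

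Of 48 listed muscle genes, 43 were in the table and 32 tested, 3 were called lower (0.175% of all genes) and none higher. At an unadjusted p under 0.05, 20 were lower (4.05% of all genes) and 1, Tpm1, higher (6.01%). For 22 the groups did not overlap, all of them below in meninges (6.7% of all genes). The median log2 fold change was -6.95, or -6.13 with genes at 0 in meninges set at their bound. Some members shared with smooth muscle, fibroblasts or endothelium did not take part. Tpm1 was at 99.8, 673 and 404 CPM in meninges against 52.8, 61.4 and 140.4 in diaphragm, Tpm2 at 12.5, 115 and 92.4 against 56.9, 27.2 and 42, and Dmd at 27.5, 142 and 80.3 against 189, 116 and 39.1. Des, also a mural cell gene, was fully below, at 5.57, 0 and 0.0529 CPM in meninges against 57.9, 64.0 and 40.9 in diaphragm. Among the tested members, 19, 17 and 14 were at 0 in Meninges replicates 1 to 3 and 0, 1 and 0 in the diaphragm libraries. Of these members, 11 had no meningeal count and entered the test through the other tissues. The low-count filter therefore fixes in part these zeros, the median and the number fully below.

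Mesothelial transcripts were concentrated in Diaphragm replicate 1. Muc16, a mucin of the mesothelial surface, was at 543, 26.3 and 37.3 CPM in the diaphragm libraries, Upk3b, a uroplakin, at 356, 0.568 and 2.4, and Wt1, a zinc finger factor of mesothelium, at 197, 9.85 and 0.680. Lrrn4 was at 76.9, 4.32 and 28.5 and Bnc1, a zinc finger factor of epithelia, at 21, 8.56 and 0.931 CPM. None of these 5 had a count in any meningeal library. Against the floor of 3 counts Upk3b was at least 4054-fold and Lrrn4 at least 1241-fold lower. Muc16 was called (edgeR adjusted p = 0.0186), and without Diaphragm replicate 1 its adjusted p was 0.176. Wt1 (0.105 for the edgeR adjusted p), Upk3b (0.13) and Lrrn4 (0.1) did not pass. Msln, mesothelin, was at 16.6, 0 and 10.6 CPM in diaphragm and was not tested because of its low counts.

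Other members are expressed widely. Igfbp5, a binding protein of insulin-like growth factors, was at 2049, 4689.9 and 6966 CPM in meninges and 3707, 2240.1 and 2479 in diaphragm, and Gpm6a, a membrane glycoprotein, at 243, 59.2 and 249 against 374, 306 and 252. Without Igfbp5, the sum of the mesothelial genes was 1887, 399 and 409 CPM in the diaphragm libraries and 370.2, 255 and 387 in Meninges replicates 1 to 3, so that replicate 1 stood far above meninges and replicates 2 and 3 just above its range. Of 22 listed genes, 21 were in the table and 16 tested, 1 was called lower (0.175% of all genes), 6 were fully below (6.7%) and 1 fully above (10.4%) in meninges, and the median log2 fold change was -1.28 (between -3.72 and -0.76 when 1 library was left out). Of the 16 tested, 5 had no meningeal count and entered the test through the other tissues, so the low-count filter fixes these numbers in part. Gata4, described among the trunk factors, was at 46.8, 29 and 4.66 CPM in diaphragm. It fell from replicate 1 to replicate 3, as did Wt1, Bnc1 and the sum of the muscle stem cell genes.

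**Figure D4:**
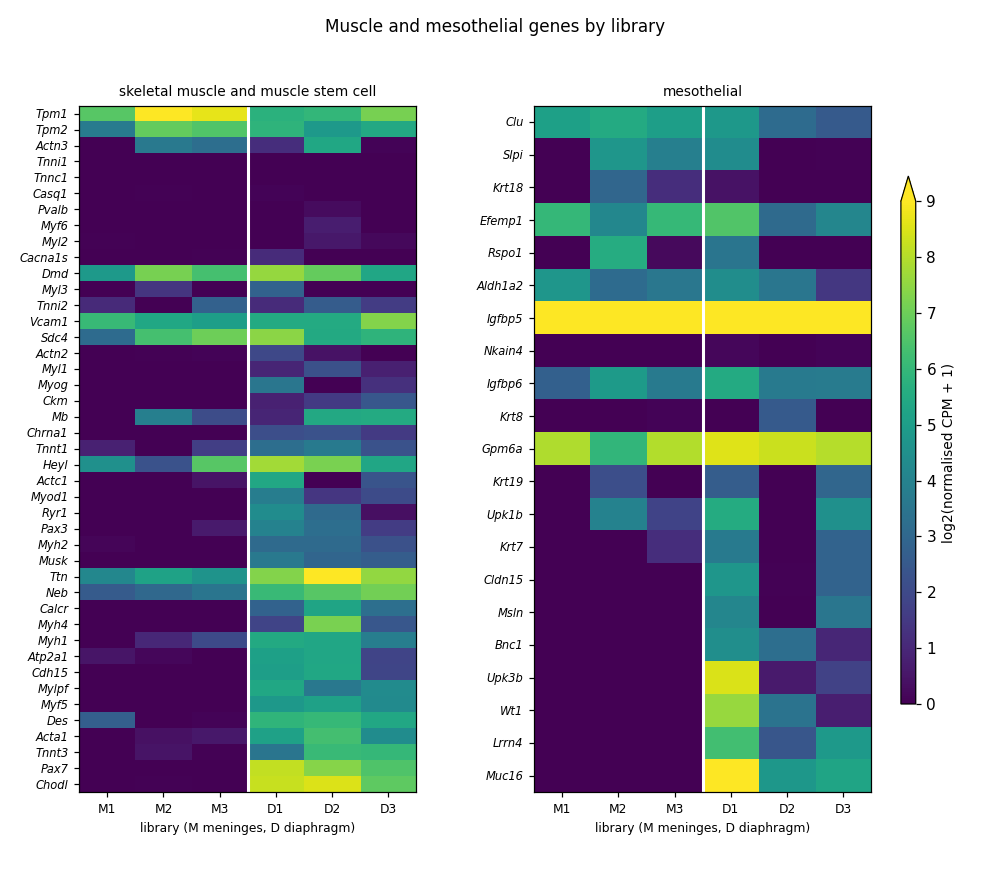
Heat maps of log2(normalised CPM + 1) for the 43 muscle genes and 21 mesothelial genes in the table, with 1 column per library and rows ordered by the difference between tissues. The muscle rows at the bottom, ending in Pax7 and Chodl, are lit in all 3 diaphragm columns and dark in all 3 meningeal ones, whereas Muc16, Upk3b and Wt1 are bright in the first diaphragm column and dim in the other two.

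Genes called lower in meninges can be set beside these muscle and mesothelial transcripts, whose origin and part in the calls were not tested. Muscle stem cell sums were within a factor of 3 of each other over the diaphragm libraries. The mesothelial sum without Igfbp5 differed by more, at 1887, 399 and 409 CPM, though single mesothelial genes did not all do so between replicate 1 and each other library. Cav1, Vim, Pkhd1l1, Wipf3 and Tnxb, described above, had diaphragm values within a factor of 2 of each other in all 3 libraries. Other called genes exceeded that factor, such as Fam102b (152, 346 and 449 CPM), Gucy1b3 (83.8, 203 and 182) and Jun (291, 516 and 229). Skin, whose stem cell and sarcomere sums are given above, had 1426, 1159.9 and 1649.5 CPM of Pkhd1l1, 1097, 818 and 872 of Wipf3 and 846, 425 and 507 of Tnxb. Drp2 was at 2.36, 1.42 and 9.09 CPM in skin.

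**Figure D5:**
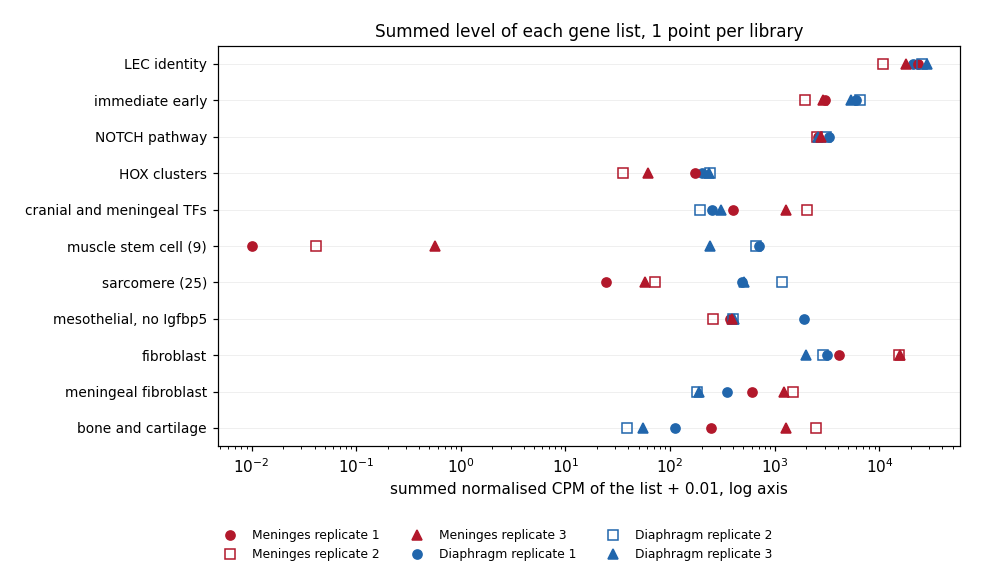
Summed normalised CPM of 11 gene groups on a log axis, with 0.01 added, 1 point per library, meninges in red and diaphragm in blue. LEC identity sums lie between 10711 and 28223 CPM in all 6 libraries and NOTCH sums between 2511 and 3273 CPM, immediate early and HOX cluster sums are lower in meninges, muscle stem cell sums are near 0 in meninges, the mesothelial sum is highest in Diaphragm replicate 1, and fibroblast and bone sums are highest in Meninges replicates 2 and 3.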

How the data were processed

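Counts of reads per Ensembl gene, 1 column per library, were deposited by the authors. Per the labels' protocols, libraries were made with Ovation RNA-Seq System V2 from PicoPure extracts, and the tools were FastQC, STAR and HTSeq with build mm9, per the submitters' processing notes. The sources used here give no versions, annotation or strand setting, so overlapping, antisense and near-identical genes are uncertain. The table held 23018 genes, of which 87 had no symbol.

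Genes were tested with edgeR 4.0.16 (R 4.3.3): filterByExpr, TMM scaling and a quasi-likelihood fit with 1 mean per tissue over the 9 libraries, with calls at 0.05 after Benjamini-Hochberg adjustment. CPM values use the TMM effective library size. Standard errors are the size of the log2 fold change divided by the square root of F. For tissues without a count, bounds use 3 counts over the group, and with 1 to 3 counts, an exact 95% interval of the pooled ratio was computed. Both cover counting error only. The fit was tested on simulated counts. Replicates of a tissue differed by more than sampling noise. Alternatives were DESeq2 1.42.0 size factors and its Wald test, upper-quartile factors, filtering at 50 counts in 3 libraries or not at all, limma 3.58.1 voom with quality weights, the 2 tissues alone, a replicate block, scaling without genes of other cell types, Meninges replicate 1 alone and each library left out. Python 3.11.15 with pandas 2.3.3 and matplotlib 3.10.9 gave the tables and plots.

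The genes described are all called genes, the members of the positional, NOTCH, immediate early, muscle and mesothelial lists, the sort markers, and from other lists called members and the 3 most abundant. Some of these are not printed, and 2 list members are not reported here. Fgfr4 in the report and further genes in the closing section fall outside this rule and were chosen after their values were seen. The members and the 28 lists were chosen with earlier results of these data known. Lists are described by counts and medians beside those of all genes, with no set test. Promoter sequences are RefSeq's for GRCm38.p6, another build than the counts, and 40 of 52 immediate early genes had an entry.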

Additional observations from a re-analysis of the deposited data

How the results depend on the processing

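The counts of 25 higher and 26 lower genes moved with the processing. They were 24 and 25 with DESeq2 size factors, 25 and 27 with upper-quartile factors, 25 and 26 with scaling without genes of other cell types and 29 and 29 with at least 50 counts in 3 libraries. Without a filter they were 178 and 120, with the DESeq2 Wald test 410 and 224, with limma voom 113 and 87 (15 and 25 of them among the main calls), and with the 2 tissues alone 72 and 36. With the replicate block, although samples share only a number (correlations of same-numbered deviations -0.014, 0.003 and -0.019), they were 37 and 33 and shared 23 and 26 with the main calls. With Meninges replicate 1 alone they were 3 and 8. Over the fits that left out 1 library they ranged from 7 (without Meninges replicate 3) to 67 (without Skin replicate 1) for higher and from 12 to 38, without the same libraries, for lower genes.

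List medians of the log2 fold change moved as well. The HOX median of -1.35 was -2.63 without a filter, -3.28 with voom, -3.40 with the replicate block and -6.10 with Meninges replicate 1 alone, and ranged from -3.52 to -1.35 with 1 library left out. The cranial median of 8.44 was 9.99 with the 50-count filter, 5.93 with voom, 6.25 with the 2 tissues alone and 1.49 with Meninges replicate 1 alone (7.47 to 9.90 with 1 library left out). The trunk median of 0.25 was 1.23 without a filter, -0.39 with the 50-count filter and -2.47 with Meninges replicate 1 alone (-0.52 to 1.33). The muscle median of -6.95 was -5.02 without a filter, -5.17 with the 50-count filter, -7.84 with the block and -8.73 with Meninges replicate 1 alone (-7.43 to -4.81). The mesothelial median of -1.28 was -10.33 with Meninges replicate 1 alone (-3.72 to -0.76). Filters change which genes enter a median, and otherwise the cause was not tested. NOTCH and immediate early medians kept their sign in every setting. Genes at a few counts are limited by depth: their fitted fold changes depend on the prior count.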

Other observations

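Apart from called genes and Igf2, Igf1 and Lama4, the genes below were chosen after their values were seen. In the list of FGF and insulin-like growth factor genes, 1 of 18 was called higher (0.169% of all genes). Igf2 was at 579, 707 and 1216 CPM in meninges and 321, 139 and 159.5 in diaphragm (log2 change 2.01 with an SE of 0.42, edgeR adjusted p = 0.0725), and H19, the noncoding RNA of the same imprinted locus, at 212, 469.6 and 481 against 43.1, 64.5 and 53.1 (log2 change 2.86 with an SE of 0.68, edgeR adjusted p = 0.122). Igfbp4, which binds these factors, was at 388, 379.9 and 577 against 165, 161 and 99.5 CPM. All meningeal libraries were above all diaphragm ones for these 3 genes, and none passed the test. Igf1 was at 75.2, 1105 and 877 against 74.2, 83.4 and 59 CPM, with Meninges replicate 1 level with diaphragm.

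Among blood endothelial genes, Plvap was the 1 called of 25 (0.169% of all genes were called higher). Esm1, a proteoglycan of endothelial tip cells, was at 69.7, 97.6 and 75.5 CPM against 0.774, 0 and 0 (log2 change 8.27 with an SE of 1.89, edgeR adjusted p = 0.122). Vwf, the clotting glycoprotein of blood vessels, was at 434, 101 and 163 against 79.6, 16.6 and 3.72 CPM, highest in Meninges replicate 1. The blood endothelial list summed to 4171, 1754 and 2539 CPM in meninges and 3450.2, 2237 and 2376 in diaphragm. Its members went in both directions, 13 with a log2 change above 0 and 12 below. In meninges 6 were fully above (10.4% of all genes) and 5 fully below (6.7%). At an unadjusted p under 0.05, 3 were higher (6.01% of all genes) and 4 lower (4.05%). Stab2, a scavenger receptor for hyaluronan, was higher in every meningeal library, at 796, 694 and 559 against 218, 44.5 and 37.4 CPM (log2 change 2.77 with an SE of 0.64, edgeR adjusted p = 0.105), the reverse of Lyve1, another hyaluronan receptor, at 2619, 909 and 1287 against 2767, 3513 and 4865 (log2 change -1.21 with an SE of 0.34, edgeR adjusted p = 0.223).

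Matrix genes went in both directions, with 1 of 28 called higher (Thbs1) and 1 lower (Tnxb), against 0.169% and 0.175% of all genes. The basement membrane chain genes Lama4 (582, 494 and 589 against 930.2, 848 and 1044 CPM) and Lamb1 (71.2, 113 and 84.5 against 208, 363 and 205) and elastin, Eln (76.6, 85.2 and 61.3 against 165, 225 and 234), were lower in each meningeal library without passing the test. Tnc, tenascin-C, was at 364, 487 and 328 against 17.5, 12.5 and 50.4 CPM, opposite to Tnxb of the same family (log2 change 3.87 with an SE of 1.19, edgeR adjusted p = 0.289).

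Ttr, the carrier made by the choroid plexus, was the 1 called of 17 tested genes on the choroid plexus, neural and glial list. Over all genes 0.169% were called higher. Of the 17, 16 had a log2 change above 0 (51.6% of all genes) and 11 were fully above in meninges (10.4% of all genes). The median was 7.81, or 5.69 with genes at 0 in diaphragm set at their bound. Those genes, 7 of the 17, entered the test through the other tissues, so the low-count filter fixes these numbers in part. The list summed to 1054, 1406 and 1314 CPM in meninges and 361, 399 and 304 in diaphragm. Clic6 was at 5.38, 17 and 4.23 CPM against 0, 0 and 0, Kl at 18.8, 10.7 and 51 against 0, 1.51 and 0.0358, Kcnj13 at 10.5, 3.84 and 6.42 against 0, 2.46 and 6.2 and S100b, a glial calcium-binding protein, at 15.4, 12.6 and 53.6 against 0, 0 and 0. Folr1 was at 2.5, 0 and 0 CPM against 0.0369, 0 and 0. Enpp2, which makes lysophosphatidic acid, was at 269, 299 and 311 against 159, 23.6 and 46.5 CPM. The part of these cell types in the meningeal values was not tested.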
